A study of Oryctolagus cuniculus with 6 samples.

Results

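The miRNAs described here are the red-cell miRNAs miR-451, miR-144 and miR-486, measured in hypertrophic scars of the rabbit ear after saline or exosome treatment. Every row of the deposited miRNA table whose name, without its arm, is miR-451, miR-451a, miR-144 or miR-486 was taken, which gave 5 of the 467 rows. In the table's own spelling these were ocu-miR-451-5p, both arms of miR-144 (ocu-miR-144-3p and ocu-miR-144-5p) and both arms of miR-486 (ocu-miR-486-5p and ocu-miR-486-3p), written below without the rabbit prefix. Values are in CPM, a miRNA's reads after each library is brought to 1000000 miRNA reads. A mean of 10 CPM or more, required for the comparison of groups, was reached by 224 rows, among them all of these but miR-486-3p. The miRNAs were chosen by name, but selected on their lower CPM after exosome treatment in these same libraries, so that difference is given below as a description without a test.

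Female New Zealand White rabbits carried full-thickness wounds on the inner ear, and the scars were collected on day 21. The control group received saline, and the treated group received ADSC-Exos, vesicles secreted by adipose-derived stem cells, as 100 µg per 2 ml. There were 3 libraries per group. According to the design text the agents were applied during the first 3 days, but the labels of the samples give 21 days of treatment, and the species of the stem cells was not stated. Each ear carried several wounds, and the labels do not say which rabbit gave which library, so the p-values below measure the spread between these libraries, which may in part lie within an animal.

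miR-144 and miR-451 are made from a shared primary transcript that the erythroid factor GATA1 switches on, and they accumulate as red cells mature. miR-451 is unusual in that its hairpin is too short for Dicer and is cut by the Argonaute protein AGO2, whereas miR-144 is a conventional Dicer product. miR-486 arises within the gene of ankyrin-1, a protein of the red-cell membrane skeleton, and is known from both red cells and skeletal muscle. In the RefSeq annotation of rabbit assembly mOryCun1.1, MIR451 and MIR144 are direct neighbours between ERAL1 and FLOT2, and MIR486 lies within the span of ANK1. All 3 miRNA genes matched by symbol.

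The libraries held between 2260645 (ADSC-Exos 1) and 5102405 (ADSC-Exos 3) miRNA reads, as placed by the step between low CPM values. ADSC-Exos 1 stood apart from ADSC-Exos 2 and 3 in several miRNA groups, so results are also given without it. Its cartilage miRNAs averaged -1.07 log2 units relative to the saline mean, against 0.89 and 0.82 in the other treated libraries, and its smooth muscle miRNAs averaged -1.07, against 0.15 and 0.10. The scar label was checked against fibroblast and keratinocyte miRNAs. miR-199a-3p, abundant in fibroblasts, lay between 95046 and 148229.9 CPM in every library, and its other arm, miR-199a-5p, between 9865.4 and 30001.3 CPM. The keratinocyte miRNAs miR-205-5p and miR-141-3p lay between 1083 and 5017.1 CPM and between 4006.8 and 6820.3 CPM. In ADSC-Exos 1 the cartilage miRNAs miR-140-3p and miR-140-5p, at 836 and 532.6 CPM, and the smooth muscle miRNAs miR-143-3p and miR-145-5p, at 13577.1 and 739.6 CPM, were each at their lowest of the 6 libraries.

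miR-451-5p, whose known targets in mouse red cells include Ywhaz, was measured at 173.4, 200.4 and 256.9 CPM in saline 1, 2 and 3. The treated libraries, ADSC-Exos 1, 2 and 3, gave 140.7, 50.7 and 34.3 CPM. All treated libraries lay below all saline libraries, with ADSC-Exos 1 close to the lowest saline value and the other treated libraries far below it. Group means were 210.2 ± 42.6 CPM for saline against 75.2 ± 57.3 CPM for ADSC-Exos (SD, n = 3 per group). On the log2(CPM + 1) scale the fold change was -1.71 ± 0.50 (SE). In these bulk libraries, the number of red cells and the miRNA per cell cannot be told apart, and the cause of the lower CPM was not tested.

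miR-144-3p, the arm that represses the oxidative stress regulator NRF2 in human red cells, was at 104.4, 161.1 and 304.7 CPM in saline. The treated libraries gave 161.0, 36.2 and 31.0 CPM. ADSC-Exos 1 lay inside the saline range, level with saline 2, and the other treated libraries lay below all saline values. Means were 190.1 ± 103 CPM for saline and 76.1 ± 73.6 CPM for ADSC-Exos (SD, n = 3 per group), and the log2 fold change came to -1.59 ± 0.64 (SE). Of the 4 miRNAs it varied most within saline, by 2.92-fold from the lowest to the highest library, against 1.48-fold for miR-451-5p.

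miR-144-5p, the other arm of the same hairpin, gave 41.0, 33.8 and 76.4 CPM with saline, against 31.8, 14.3 and 11.4 CPM with exosomes. The groups did not overlap, but ADSC-Exos 1 and saline 2 had overlapping counting intervals, 24.9 to 40.1 and 27.4 to 41.2 CPM (exact Poisson, 95%). Means were 50.4 ± 22.8 CPM for saline and 19.2 ± 11.04 CPM for ADSC-Exos (SD, n = 3 per group), and the log2 fold change was -1.39 ± 0.48 (SE). This arm rested on the fewest reads of the 4, 53 in ADSC-Exos 2 and 58 in ADSC-Exos 3.

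miR-486-5p, which represses FOXO1 in muscle, gave 124.1, 168.1 and 214.5 CPM with saline, against 138.0, 53.2 and 32.5 CPM with exosomes. As for miR-144-3p, ADSC-Exos 1 lay inside the saline range and the other treated libraries below it. Means were 168.9 ± 45.2 CPM for saline and 74.6 ± 55.9 CPM for ADSC-Exos (SD, n = 3 per group), and the log2 fold change came to -1.39 ± 0.51 (SE). The opposite arm, miR-486-3p, was found with 1 read, in saline 3, against 2400 reads of miR-486-5p over the 6 libraries. In the other 5 libraries it was listed at 0, with upper counting limits from 0.723 CPM in ADSC-Exos 3 to 1.63 CPM in ADSC-Exos 1 (exact Poisson, 95%).

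**Figure D1:**
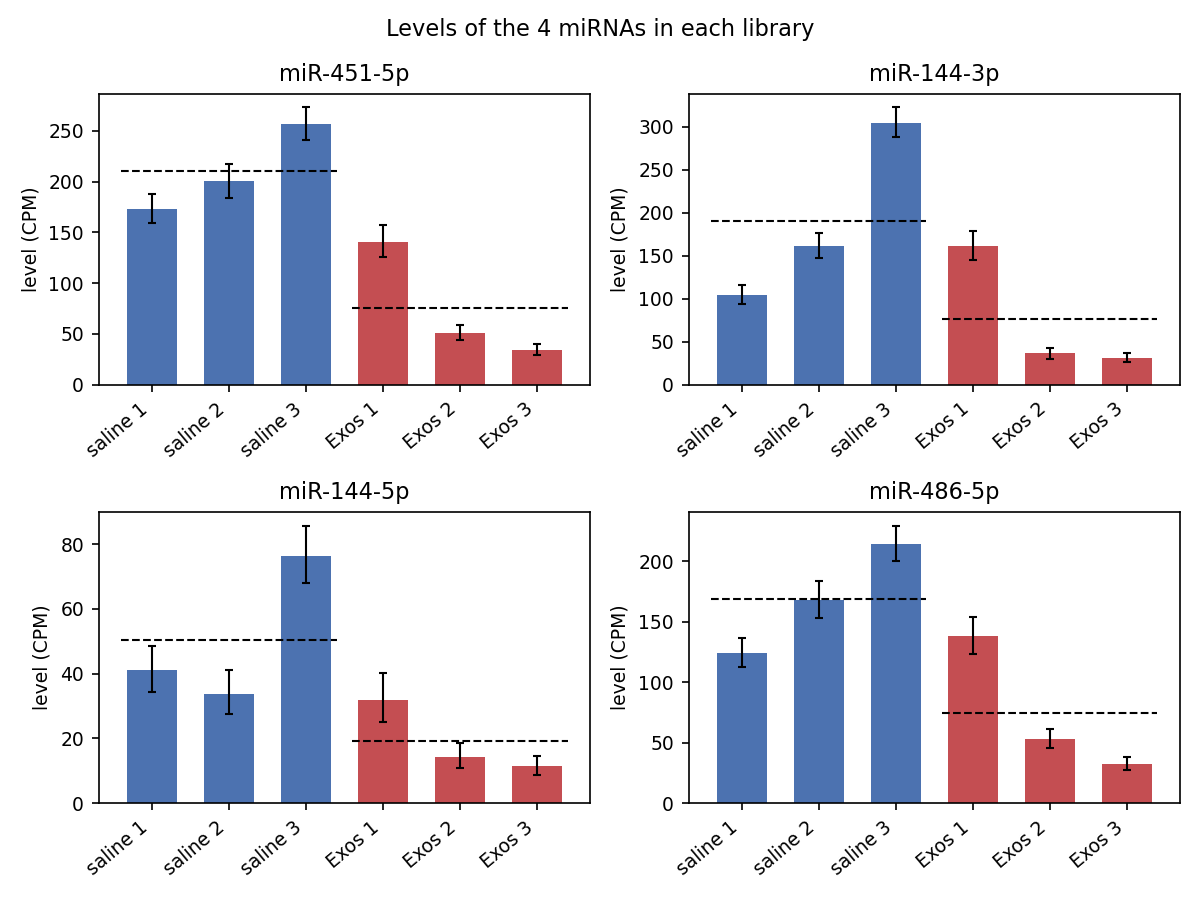
Level in CPM of miR-451-5p, both arms of miR-144 and miR-486-5p in each library (bars, saline blue, ADSC-Exos, shortened to Exos, red), with exact Poisson 95% counting intervals and group means as dashed lines. ADSC-Exos 2 and 3 lie below every saline library for all 4 miRNAs, whereas ADSC-Exos 1 lies inside the saline range for miR-144-3p and miR-486-5p.

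The counting intervals were narrow beside the spread between libraries. For miR-451-5p they reached from 43.8 to 58.5 CPM in ADSC-Exos 2 and from 29.4 to 39.8 CPM in ADSC-Exos 3, against 159 to 188 CPM in saline 1, the lowest saline library. Counting error was smaller than the gap between ADSC-Exos 1, at 126 to 157 CPM, and the other treated libraries. Spread within the treated group was wide for all 4 miRNAs, from 2.79-fold between its lowest and highest library for miR-144-5p to 5.19-fold for miR-144-3p.

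Together the 4 miRNAs made up a small part of each library. Their sum was 442.9, 563.4 and 852.5 CPM in saline, or 0.0443% to 0.0853% of miRNA reads. With exosomes their sum was 471.5, 154.4 and 109.2 CPM, or 0.0472%, 0.0154% and 0.0109%. ADSC-Exos 1 again lay within the saline range. By rank, miR-451-5p took places 88 to 99 of 467 among saline libraries, and places 102, 134 and 146 among treated ones.

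The order among the 4 was only partly stable. miR-144-5p was lowest in 6 of 6 libraries. miR-451-5p exceeded miR-486-5p in 5 of 6 libraries and miR-144-3p in 4 of 6, and miR-144-3p exceeded miR-486-5p in 2 of 6. In saline miR-451-5p exceeded miR-486-5p in 3 of 3 libraries, whereas miR-144-3p was below both in saline 1 and 2 and above both in saline 3, so its place was not fixed. In ADSC-Exos the means of these 3 lay between 74.6 and 76.1 CPM. Such comparisons between miRNAs are of reads per mature miRNA of similar length, uncorrected for unequal capture of different sequences.

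The 4 miRNAs varied together from library to library. Relative to the saline mean, the mean log2 level of the 4 was -0.40, -0.15 and 0.55 with saline, and -0.37, -1.88 and -2.32 in the 3 treated libraries. Saline 3 was the highest library for each of the 4, and ADSC-Exos 3 the lowest for each. Across the 6 libraries the pairwise Pearson r of log2(CPM + 1) was 0.94 to 0.99. After the group means were removed it was 0.87 (miR-144-5p with miR-486-5p) to 0.99 (miR-451-5p with miR-486-5p). These r describe 6 points from 2 groups that share the scaling to library totals. With the group means removed, miRNAs outside the 4 also reached such values with their mean, such as miR-301a-3p with an r of 0.99. Over the 6 libraries miR-486-5p, from another locus, had an r of 0.99 with miR-451-5p, and the arms of miR-144 had 0.95 with each other.

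**Figure D2:**
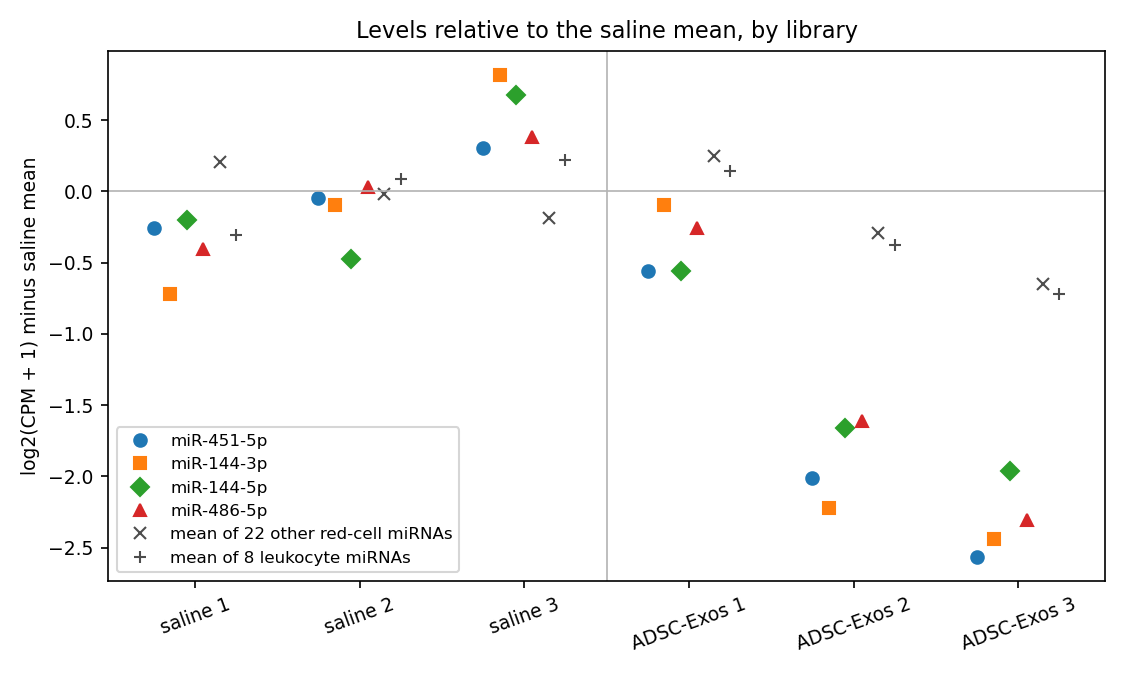
log2(CPM + 1) of each of the 4 miRNAs minus its saline mean, by library, with the mean over 22 other red-cell miRNAs (crosses) and 8 leukocyte miRNAs (plus signs). The 4 miRNAs lie at -0.10 to -0.56 in ADSC-Exos 1 and at -1.61 to -2.56 in ADSC-Exos 2 and 3, where the averages of the other groups lie at -0.29 to -0.72.

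Ratios within a library do not depend on its scaling. The ratio of miR-144-3p to miR-144-5p was 2.55, 4.77 and 3.99 in saline and 5.06, 2.53 and 2.72 in ADSC-Exos. The groups overlapped, and on the log2 scale their means of 1.84 ± 0.46 and 1.65 ± 0.57 (SD, n = 3 per group) differed by less than either SD. The log2 fold changes of the arms lay 0.19 apart, which was place 22 from the smallest gap among 57 hairpins with both arms tested, where the median gap was 0.24. The neighbours in that order were miR-10b with a gap of 0.19 and miR-151 with 0.21. miR-144 was the 1 hairpin of the 57 with both arms at a log2 fold change below -1. As miR-144 was selected for its lower CPM in this contrast, that place describes the choice.

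**Figure D3:**
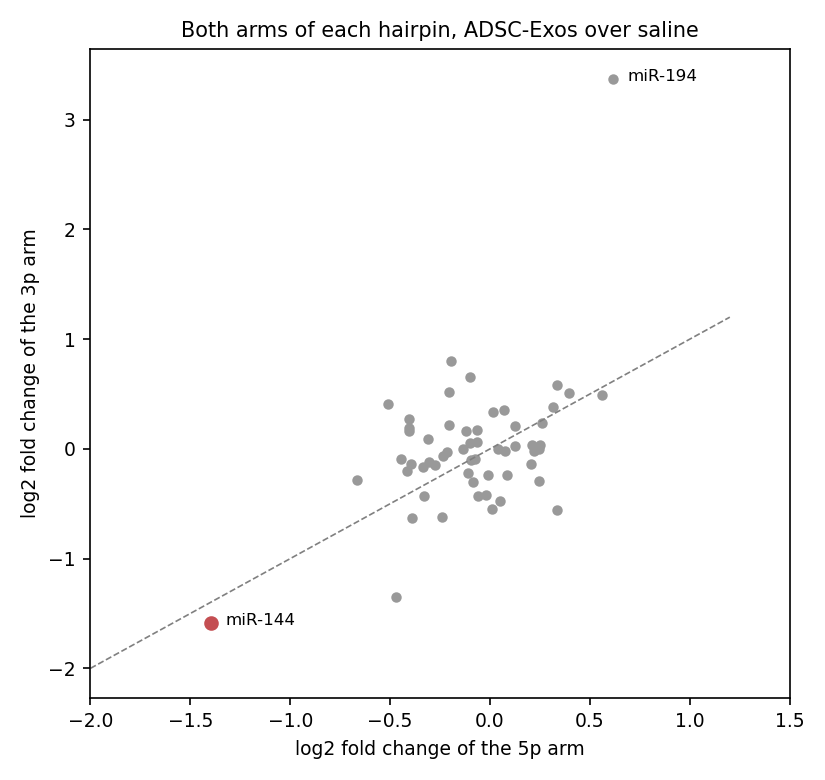
log2 fold change (ADSC-Exos over saline) of the 3p arm against the 5p arm for 57 hairpins with both arms tested, each a point, with the line of equal change dashed. miR-144 (red) lies at -1.39 for the 5p and -1.59 for the 3p arm, near that line, and miR-194 lies far above it.

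The ratio of miR-486-5p to miR-451-5p was 0.716, 0.839 and 0.835 in saline and 0.981, 1.05 and 0.948 in ADSC-Exos, so every treated library lay above every saline library. On the log2 scale the means were -0.33 ± 0.13 and -0.01 ± 0.07 (SD, n = 3 per group), a difference of 0.32. The exact binomial 95% counting intervals were 0.628 to 0.815, 0.741 to 0.948 and 0.761 to 0.916 for saline 1, 2 and 3. They were 0.837 to 1.15, 0.854 to 1.29 and 0.762 to 1.18 for the treated libraries. Those of saline 2 and 3 overlapped all treated intervals, and that of saline 1 overlapped the interval of ADSC-Exos 3 alone. ADSC-Exos 1, which stood near saline in the level of the single miRNAs, stood with the other treated libraries in this ratio. Both miRNAs were selected for their lower level in these treated libraries, and miR-451-5p had the lower log2 fold change. The separation in this ratio therefore in part describes that choice and was not tested. How often other pairs of miRNAs separate in this way was not counted. The ratio of miR-144-3p to miR-451-5p, at 0.602 to 1.19 in saline and 0.714 to 1.14 in ADSC-Exos, overlapped.

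miR-486 is also a muscle miRNA, and muscle miRNAs were therefore set beside it. Of 8 measured rows of the skeletal muscle list, which leaves out miR-486, 3 were tested, all 3 were lower in ADSC-Exos and 0 passed, with a median log2 fold change of -0.70. Its summed level ran from 1453.7 to 2134.8 CPM in saline and from 612.2 to 2375.8 CPM in ADSC-Exos, and none of its rows was at 0 in all libraries. miR-1-3p, the most abundant member, gave 1621.3, 1282.6 and 2100.2 CPM with saline, against 600.7, 2338 and 1554.6 CPM with exosomes, and the groups overlapped. miR-206-3p, restricted to skeletal muscle, gave 131.5, 145.8 and 4.6 CPM with saline but 1.8, 1.6 and 1.2 CPM with exosomes. The part of muscle in the level of miR-486-5p was not tested.

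In blood samples, red-cell content is often judged from miR-451 relative to miR-23a-3p. The latter was not analysed here, and its close paralogue miR-23b-3p took its place, a choice made after the data were seen. miR-23b-3p lay between 3191.1 and 4725 CPM in the 6 libraries. The log2 ratio of miR-451-5p to miR-23b-3p was -4.39, -4.13 and -3.78 in saline and -4.49, -6.51 and -6.79 in ADSC-Exos. ADSC-Exos 1 lay just under the saline range and the other treated libraries well below it.

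**Figure D4:**
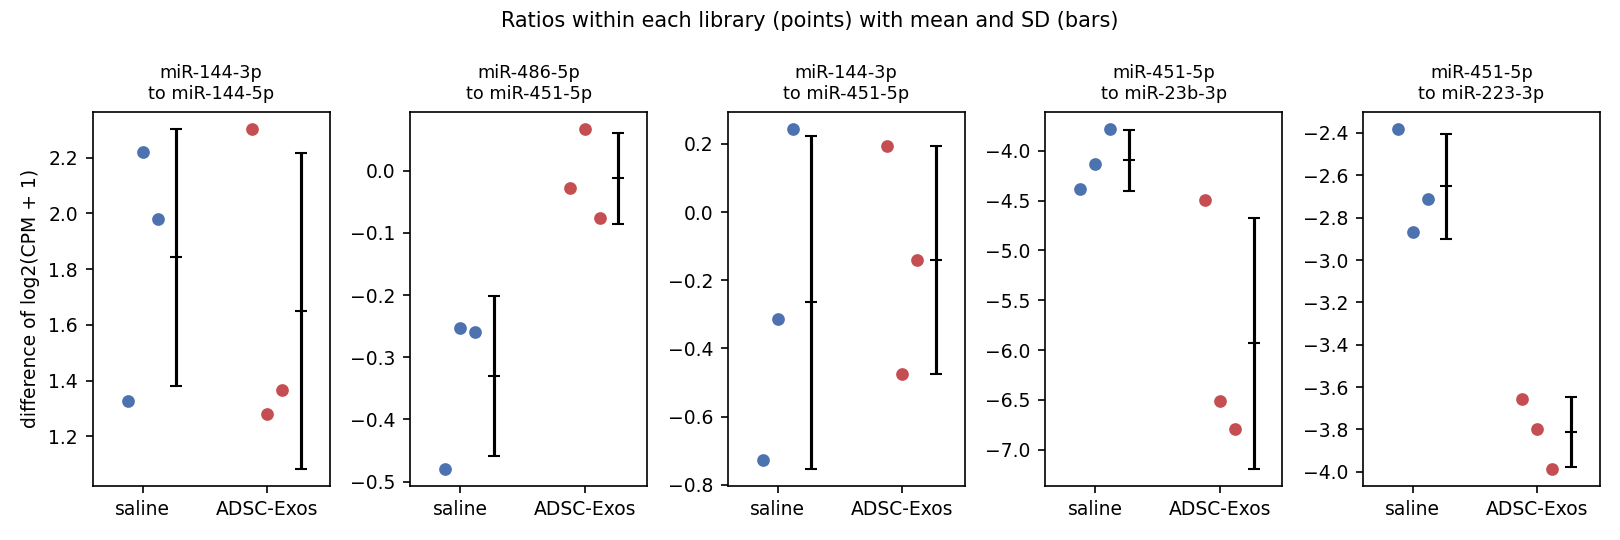
Ratios of miRNAs within each library as differences of log2(CPM + 1), each panel on its own scale, with points for libraries and bars for the mean and SD of 3. The groups do not overlap for miR-486-5p to miR-451-5p, for miR-451-5p to miR-23b-3p or for miR-451-5p to miR-223-3p, and overlap for the ratios that involve miR-144-3p. miR-451-5p was selected for its lower level after exosome treatment.

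Against the whole table, the 4 miRNAs held places 2 to 5 from the lowest log2 fold change, behind the muscle miRNA miR-206-3p at -4.24 ± 1.10 (SE). Their median was -1.49, beside -0.08 over all 224 tested. A log2 fold change below -1 was found for 4 of the 4, and for 6 of 224, or 2.68%. Without ADSC-Exos 1 the count over all miRNAs was 17 of 223, without saline 3 or ADSC-Exos 2 it was 10, and without ADSC-Exos 3 it was 7 of 225, with 3 of the 4. With all libraries the remaining 2 were miR-206-3p and miR-181c-3p, at -1.35 ± 0.48 (SE). Groups without overlap, with ADSC-Exos lower, were found for 2 of the 4, miR-451-5p and miR-144-5p, and for 8 of 224, or 3.57%. Because this contrast served to choose the miRNAs, the shares describe the choice.

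In limma across all 224 miRNAs, 0 passed an adjusted p of 0.05, or 0.0%, and the 4 miRNAs are among those that did not. At an unadjusted p under 0.05 there were 8 of 224, both in this fit and in limma-voom on reads recovered from the CPM steps. That is fewer than this threshold would give on average among 224 miRNAs without any difference. Without ADSC-Exos 1 the log2 fold changes were -2.29 for miR-451-5p, -2.33 for miR-144-3p, -1.81 for miR-144-5p and -1.96 for miR-486-5p. Without ADSC-Exos 3 they were -1.28, -1.16, -1.11 and -0.93 in the same order, and each remained below 0 in all leave-outs.

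**Figure D5:**
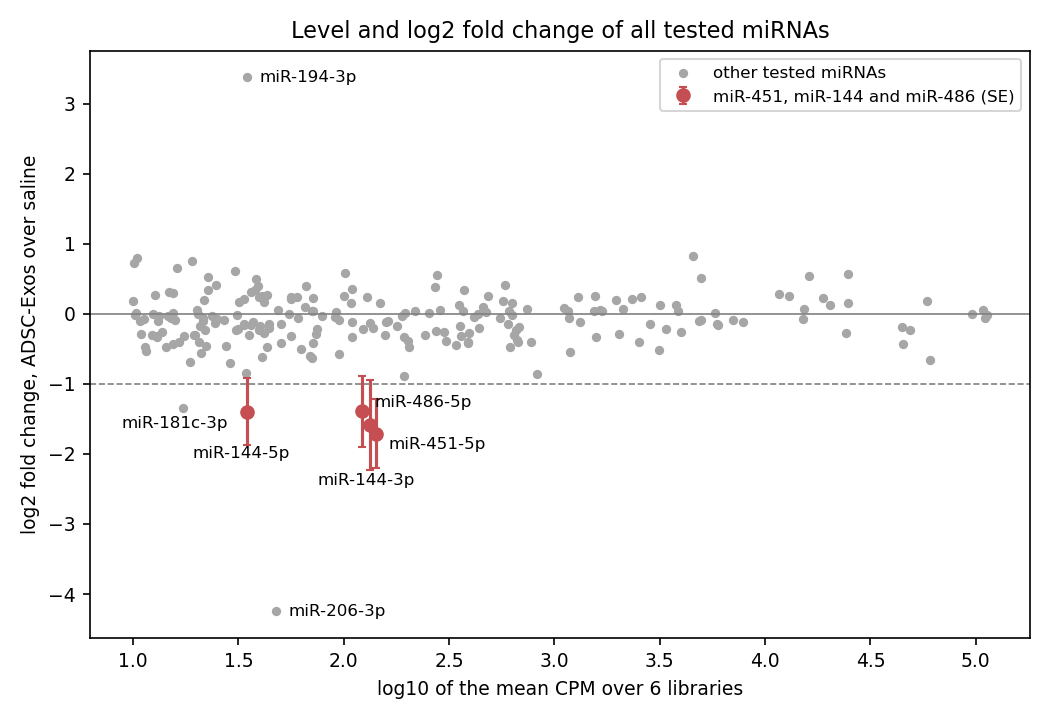
log2 fold change (ADSC-Exos over saline) of 224 tested miRNAs against the log10 of their mean CPM, with miR-451-5p, both arms of miR-144 and miR-486-5p in red with SE bars and the dashed line at a log2 fold change of -1. The 4 lie between -1.39 and -1.71, and 2 other miRNAs, miR-206-3p and miR-181c-3p, lie below the dashed line.

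Other miRNAs that are abundant in mature red cells had smaller log2 fold changes. Of 36 measured rows of this list, 22 were tested, 3 were higher, 19 lower and 0 passed in limma, and 0 had a log2 fold change below -1. Over all 224 tested miRNAs, 136 were lower and 88 higher. The list had a median log2 fold change of -0.21 and a range of -0.68 to 0.16. Most of these miRNAs are also made by many other cell types. The list's summed level was 87924 to 100033 CPM in saline, and it was 131171, 73159 and 62568 CPM in ADSC-Exos 1, 2 and 3. Its median was -0.42 without ADSC-Exos 1 and 0.0079 without ADSC-Exos 3.

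The most abundant of them, miR-16b-5p, a miRNA of the proliferation-restraining miR-15/16 family, gave 46728.1, 54422.9 and 53636.8 CPM with saline, against 69021.9, 34848.1 and 34693.2 CPM with exosomes. ADSC-Exos 1 was thus the highest of the 6 libraries and ADSC-Exos 2 and 3 the lowest. limma gave it a log2 fold change of -0.24 ± 0.30 (SE) and its paralogue miR-16a-5p -0.08 ± 0.29 (SE), each at an adjusted p of 0.996. The ratio of miR-451-5p to miR-16b-5p, chosen after the values were seen, was 0.00371, 0.00368 and 0.00479 in saline and 0.00204, 0.00145 and 0.000989 in ADSC-Exos, without overlap.

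Leukocyte miRNAs, which mark the other cells of blood and inflamed tissue, were examined beside the red-cell miRNAs. Of 11 measured rows, 8 were tested, 2 were higher, 6 lower and 0 passed, with a median log2 fold change of -0.35. Their summed level ran from 8057.7 to 10208 CPM in saline and was 10247.1, 6752.9 and 7603.7 CPM in ADSC-Exos 1, 2 and 3, and none was at 0 in all libraries. The most abundant of them were miR-146a-5p, a brake on inflammatory signalling, at -0.26 ± 0.38 log2 units (SE), and miR-155-5p, induced in activated immune cells, at 0.21 ± 0.41 (SE). For both the adjusted p from limma was 0.996. The part of leukocyte content in the levels of miR-451, miR-144 and miR-486 was not tested.

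miR-223-3p, a miRNA of neutrophils and other myeloid cells, followed the red-cell miRNAs most closely among the leukocyte miRNAs. Saline libraries held 906.2, 1469.4 and 1686.4 CPM, treated libraries 1785.3, 718.5 and 558 CPM, and the log2 fold change was -0.55 ± 0.46 (SE). ADSC-Exos 1 was its highest library. The ratio of miR-451-5p to miR-223-3p, chosen after the values were seen, was 0.191, 0.136 and 0.152 in saline and 0.0788, 0.0706 and 0.0615 in ADSC-Exos. In this ratio the treated libraries lay close together and below all saline libraries, with log2 means of -3.81 ± 0.17 and -2.65 ± 0.25 (SD, n = 3 per group). As miR-451-5p was selected for its lower level in these treated libraries, its separation in the ratios to miR-223-3p, miR-16b-5p and miR-23b-3p in part describes that choice.

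The pattern of every tested miRNA over the 6 libraries was compared with the mean of the 4 by Pearson r of log2(CPM + 1). The 5 nearest miRNAs outside the group were miR-20b-5p (r = 0.94), miR-181c-3p (r = 0.90), miR-223-3p (r = 0.89), miR-15b-3p (r = 0.86) and miR-24-3p (r = 0.85). Their log2 fold changes were -0.16 to -0.63, except for miR-181c-3p at -1.35, which gave 29.3, 23.3 and 20.5 CPM with saline, against 17.7, 6.7 and 5.7 CPM with exosomes. miR-20b-5p, of a paralogue of the miR-17-92 cluster, gave 69.3, 65.4 and 83.6 CPM with saline, against 67.7, 53.4 and 35.7 CPM with exosomes. For comparison, each of the 4 had an r of 0.97 to 0.99 with the mean it belongs to. The r use 6 points and share the scaling and the difference between groups. With the group means removed, the nearest miRNA was miR-301a-3p (r = 0.99), with 215.6, 300.6 and 418.5 CPM after saline against 516.7, 201.9 and 148.9 CPM after exosomes. Next came miR-223-3p (r = 0.97), miR-93-5p (r = 0.97), miR-361-3p (r = 0.96) and miR-191-3p (r = 0.96). Of the miRNAs named here, miR-93-5p, miR-191-3p and miR-15b-3p belong to the list of other red-cell miRNAs.

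At the other end stood miR-194-3p, which belongs to the miRNA of the series title, with an r of -0.95. Saline libraries held 1.16 to 4.6 CPM of it and treated libraries 3.5, 93.7 and 103.1 CPM, where miR-451-5p was at 140.7, 50.7 and 34.3 CPM. The treated library with a miR-194-3p level like that of saline was also the one with red-cell miRNAs nearest to saline. The other arm, miR-194-5p, differed less, at 24.6, 19.1 and 25.3 CPM with saline and 20.8, 47.8 and 44.9 CPM with exosomes. Its log2 fold change was 0.62 ± 0.41 (SE), against 3.37 ± 1.09 (SE) for miR-194-3p. miR-122-5p, a liver miRNA that circulates in plasma, gave 2.8, 10.1 and 38.1 CPM with saline, against 10.2, 10.3 and 5.7 CPM with exosomes, and the groups overlapped.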

How the data were processed

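Small RNA libraries of 6 rabbit ear scars were sequenced. The authors deposited CPM values for 467 mature miRNAs, so each value is a share of its library's miRNA reads. Tools named in the submitters' processing notes, without their roles, are DESeq2 1.30.1, HTSeq 2.0.3, STAR 2.7.6a, Trimmomatic 0.40 and FastQC 1.0.0. Neither the genome build nor the miRNA annotation is stated, nor whether reads or molecular identifiers were counted, and coordinates are left out. Read totals were recovered as the number that makes the values whole reads within 0.05 CPM, which 2378 of 2382 values above 0 were, a tolerance that 22.6% to 51.0% of arbitrary values would meet. For ADSC-Exos 3, 2 totals did equally well. The recovery is therefore uncertain, and read numbers, counting intervals and limma-voom rest on it. The procedure and the fit were tested on simulated data.

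limma 3.58.1 (R 4.3.3, trend) was fitted to log2(CPM + 1) of the 224 miRNAs averaging 10 CPM or more, two-sided, with Benjamini-Hochberg adjustment and group as the only term. Such fold changes understate those of low miRNAs. Intervals cover counting error only. The miRNAs and lists were chosen with earlier results of these data known. Named were the 5 rows of the rule, the 5 miRNAs of highest r with the mean of the 4, the 2 most abundant tested members of each list, and the hairpins next to miR-144 in arm gap. Both arms of miR-194, miR-122-5p and the ratios to miR-23b-3p, miR-16b-5p and miR-223-3p were added after seeing values or by their list. So were miR-301a-3p, miR-93-5p, miR-361-3p and miR-191-3p. Alternatives were quantile and median-of-ratios scaling, a pseudocount of 0.1 or 10, a level filter of 0 or 100 CPM, a block on the replicate number, limma-voom, and leaving out each library.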

Additional observations from a re-analysis of the deposited data

How the results depend on the processing

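The median log2 fold change of the 4 miRNAs was -1.60 to -1.33 over changes of scaling, pseudocount, filter, block and test, and -2.12 to -1.14 when a library was left out. Without ADSC-Exos 1 it was the lowest, and without ADSC-Exos 3 the highest. With a mean of at least 100 CPM it rests on 3 miRNAs, as miR-144-5p was not tested. Scaling by median of ratios or quantiles moved the median of all miRNAs from -0.08 to -0.02 and -0.0043. The count of 0 miRNAs that passed in limma stayed at 0 except when a library was left out, where it ranged from 0 to 4. It was 1 without saline 3 (miR-206-3p) and 4 when ADSC-Exos 1 was left out (miR-144-3p, miR-486-5p, miR-194-3p and also miR-451-5p), and leaving out a library after seeing that it stands apart gives no independent support. The count of miRNAs below a log2 fold change of -1 was 6, and 17 without ADSC-Exos 1, 10 without saline 3, 10 without ADSC-Exos 2, and it was 3 among miRNAs of at least 100 CPM.

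The count of other red-cell miRNAs that passed was 0 in all alternatives, and their median ranged from -0.42 (without ADSC-Exos 1) to 0.0079 (without ADSC-Exos 3), where its sign turned. The ratio of the summed level of the 4 in saline to that in ADSC-Exos was 2.53, and 1.98 (without ADSC-Exos 3) to 4.70 (without ADSC-Exos 1) when a library was left out. The difference in the log2 ratio of miR-486-5p to miR-451-5p was 0.24 to 0.36 over leave-outs, and that of the miR-144 arms -0.52 to -0.0033. Of the 5 miRNAs most like the 4, 1 was kept with the group means removed, 2 by Spearman rho and 2 under quantile scaling.

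With the replicate number as a block, 0 miRNAs passed and the median of the 4 was -1.49, as without it. Same-numbered libraries did not deviate together (r of -0.11, -0.02 and -0.13 over 224 miRNAs). Such r, from deviations within groups of 3, cannot show whether these libraries share a rabbit, which the labels do not give. The planned edgeR fit was not run, because the CPM steps did not establish whole reads firmly enough. limma-voom was run on the recovered reads as an alternative only and carries the same uncertainty. The planned ratio to miR-23a-3p was not made either, as that miRNA was not analysed here.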
